A study of Mus musculus with 46 samples.

Results

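NFE2L2 (NRF2) and 9 further genes of the antioxidant response were followed through 4 cell populations sorted from mouse kidneys: Nfe2l2, Nqo1, Hmox1, Gclc, Gclm, Txnrd1, Srxn1, Slc7a11, Gpx3 and Gpx4. They were chosen by name for their role, with earlier results of these data known. Each matched 1 row of the 53465 genes in the expression table. All mice were wild type (WT) male C57BL/6 animals aged 8 to 12 weeks, which underwent sham surgery, unilateral ureteric obstruction (UUO), or UUO followed by reversal of the obstruction (rUUO). UUO mice were culled at day 2 or day 7 and rUUO mice 14 days after reversal, and the labels do not give the day of each UUO sample. Cells were sorted as LTL+ proximal tubule (PT) cells, F4/80+ macrophages, CD31+ endothelial cells and PDGFRB+ stromal cells. PT cells gave 3 sham, 4 UUO and 3 rUUO samples, macrophages 4, 4 and 3, endothelial cells 4, 3 and 4, and stromal cells 4 of each, 44 in all. The labels do not say that samples within a group were separate mice in every case, so p-values measure the spread between these samples.

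NRF2 is a transcription factor that is held in the cytoplasm and degraded through KEAP1. Oxidants and electrophiles modify KEAP1, and NRF2 then enters the nucleus, pairs with small MAF proteins and binds antioxidant response elements of genes for glutathione synthesis, quinone and haem breakdown and the thioredoxin system. Its activity is set largely at the protein level, so that the mRNA levels described here are not a measure of NRF2 protein or of its binding. Proximal tubule cells carry a heavy oxidative load and are the kidney's source of the secreted glutathione peroxidase GPX3.

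The letters of the antioxidant response element core, TGACNNNGC, were searched on both strands of promoter windows from RefSeq (GRCm38.p6), which run from 250 bases before to 50 bases after each start. A window was found for 8 of the 10 genes (there was none for Hmox1 and Gclc), and the core was present for 4 of the 8, against 14% of the 27025 genes with a window. The stricter form TGACTCAGC, the same core with its N letters fixed as TCA, was present in 0.454% of all 32851 windows and in none of the members' matches. The 4 matches are shown because they give the letters behind the term "response element" for genes followed below. Each is printed on the strand that reads the core, with the core in capitals.
Nfe2l2, chr2:75704887-75704911, minus strand, core at -240 to -232 from the start: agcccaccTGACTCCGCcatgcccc
Gclm, chr3:122245415-122245439, minus strand, core at -134 to -126: gtgagagtTGACGGTGCgcccggga
Txnrd1, chr10:82859106-82859130, minus strand, core at -92 to -84 of 1 of its 3 windows: tgtcagaaTGACAAAGCaaaaatcc
Srxn1, chr2:152105544-152105568, minus strand, core at 28 to 36, within the transcribed part: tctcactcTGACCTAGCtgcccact
Nqo1, Slc7a11, Gpx3 and Gpx4 had no match of the core in these windows. A match is a run of letters and was not tested for binding.

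Expression was given as FPKM (fragment counts scaled to transcript length and to the size of the library), with a sum per sample of 586929 to 884982. The table held no counts, so the absolute depth is unknown; relative depth, read from the steps of low values, was 0.602 to 1.62 times the median sample. Genes of the mitochondrial genome took 58.7% to 75.6% of the FPKM in PT samples and 20.2% to 45.8% in the others, so the FPKM of all other genes share what is left. Each population was marked by its own genes: the summed macrophage markers (4 of 5 listed, Itgam was not analysed here) were 2443 to 3585 FPKM in macrophages except for 1 UUO library with 1024 FPKM (replicate 2). They were 6.49 to 27.7 FPKM in the other populations. Summed endothelial markers were 2013 to 2860 FPKM in endothelial cells and at most 97.9 FPKM elsewhere. The own sums of PT and stromal cells changed with surgery. Proximal tubule markers in PT cells were 1620 to 2161, 437 to 627 and 1014 to 1212 FPKM in sham, UUO and rUUO. Stromal markers in stromal cells were 998 to 2510, 6466 to 11495 and 4876 to 6468 FPKM. The part of these shifts in other results was not tested. Sorted samples also held transcripts of other cells, and in such bulk samples fewer cells of a type and less RNA per cell cannot be told apart. Endothelial sham replicate 3 had the highest sum of thick ascending limb markers of its group (640.4 FPKM, against 130.5 to 282 FPKM in the other 3).

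In PT cells, UUO raised Nfe2l2 4.56-fold and Gclc 2.29-fold and lowered Gpx3 to 0.355 of its sham mean, whereas the other 6 genes tested did not pass. In macrophages Hmox1 rose 2.52-fold and Gpx3 fell, in endothelial cells Gpx3 fell, and in stromal cells Gclc and Gpx4 fell. Counted over the members, 3 of 9 tested passed in PT cells (background: 32.8% of all genes tested), 2 of 9 in macrophages (background 4.99%), 1 of 9 in endothelial cells (background 1.98%) and 2 of 9 in stromal cells (background 26.4%). Both members still passed in macrophages without UUO replicate 2, and none passed in endothelial cells without sham replicate 3. No member tested passed as higher in more than 1 population in this comparison. The UUO means of Nfe2l2 were 4.56, 1.19, 1.20 and 1.28 times sham in PT cells, macrophages, endothelial and stromal cells. Those of Hmox1 were 1.76, 2.52, 2.24 and 1.46 times sham in the same order. Gclc moved in opposite directions in PT and stromal cells. Summed thick ascending limb markers did so too (values below), and their part was not tested. Values were compared by limma on log2(FPKM + 1), a scale that understates the change of low genes, with Benjamini-Hochberg adjustment over all genes averaging 1 FPKM or more in the samples fitted. Slc7a11 was under this level except in macrophages, where only its rUUO group brought it over and Nqo1 was under it instead. So 9 of the 10 genes were tested in each comparison. The median log2 change of the members was 0.38 in PT cells, 0.22 in macrophages, 0.01 in endothelial cells and -0.49 in stromal cells, beside 0.51, -0.03, 0.03 and -0.07 over all genes tested.

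**Figure D1:**
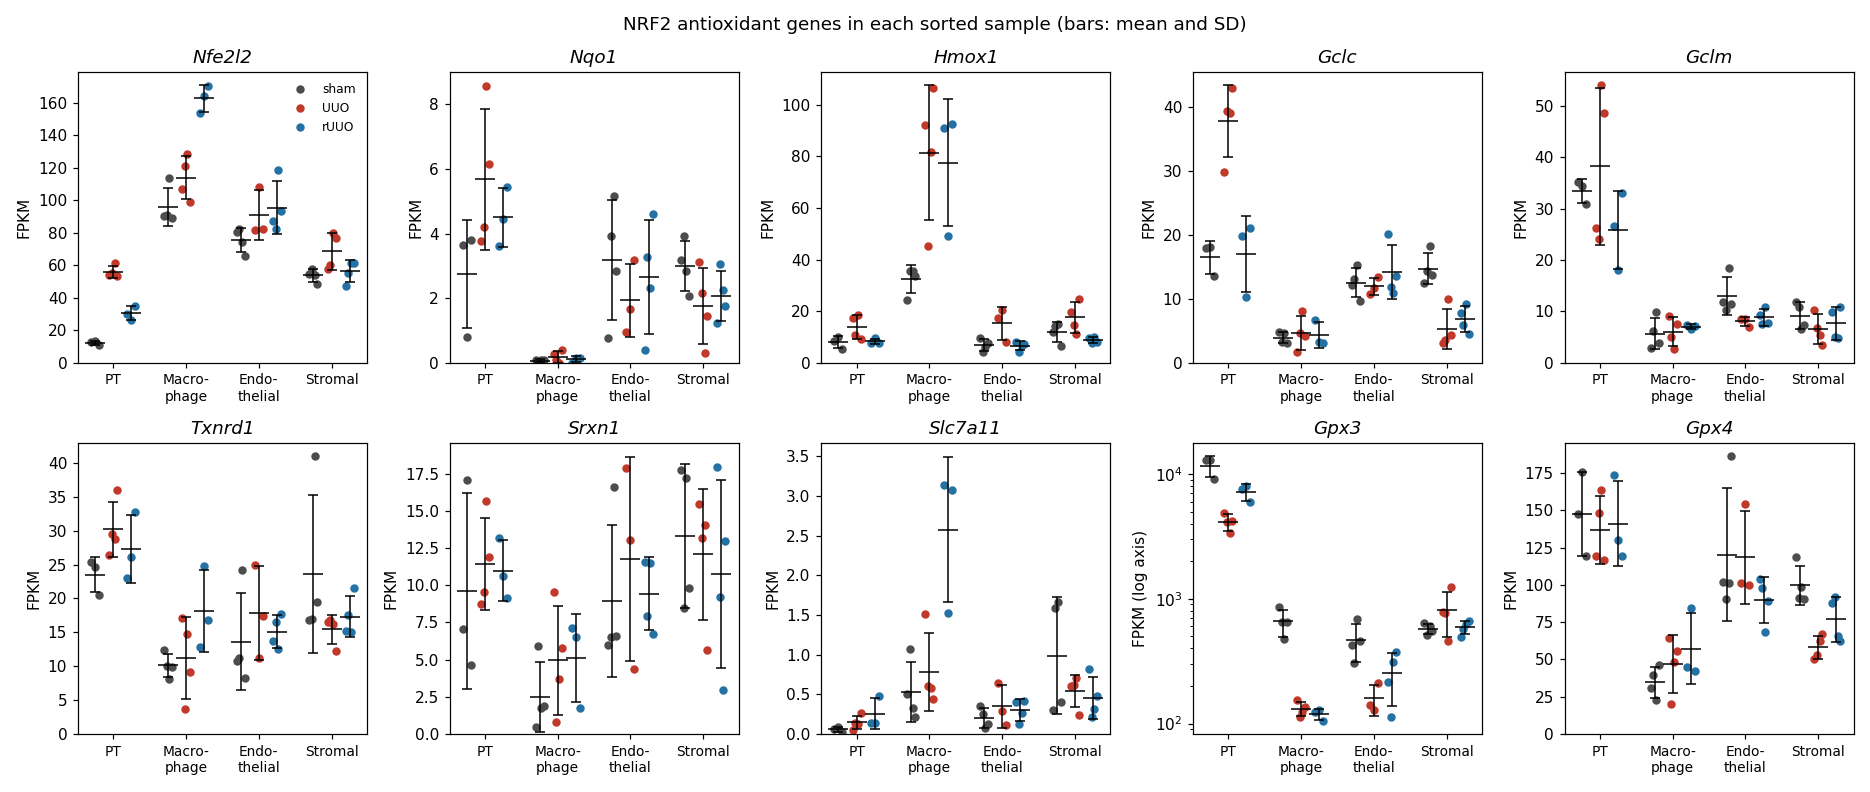
FPKM of each gene (y axis, log for Gpx3) in every sample, by sorted population (x axis) and surgery (colour: grey sham, red UUO, blue rUUO). Points are samples and bars the mean and SD. The 4 PT UUO samples of Nfe2l2 lie between 53.5 and 61.6 FPKM, above all PT sham samples, and the lowest PT value of Gpx3 is 3358 FPKM.

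**Figure D2:**
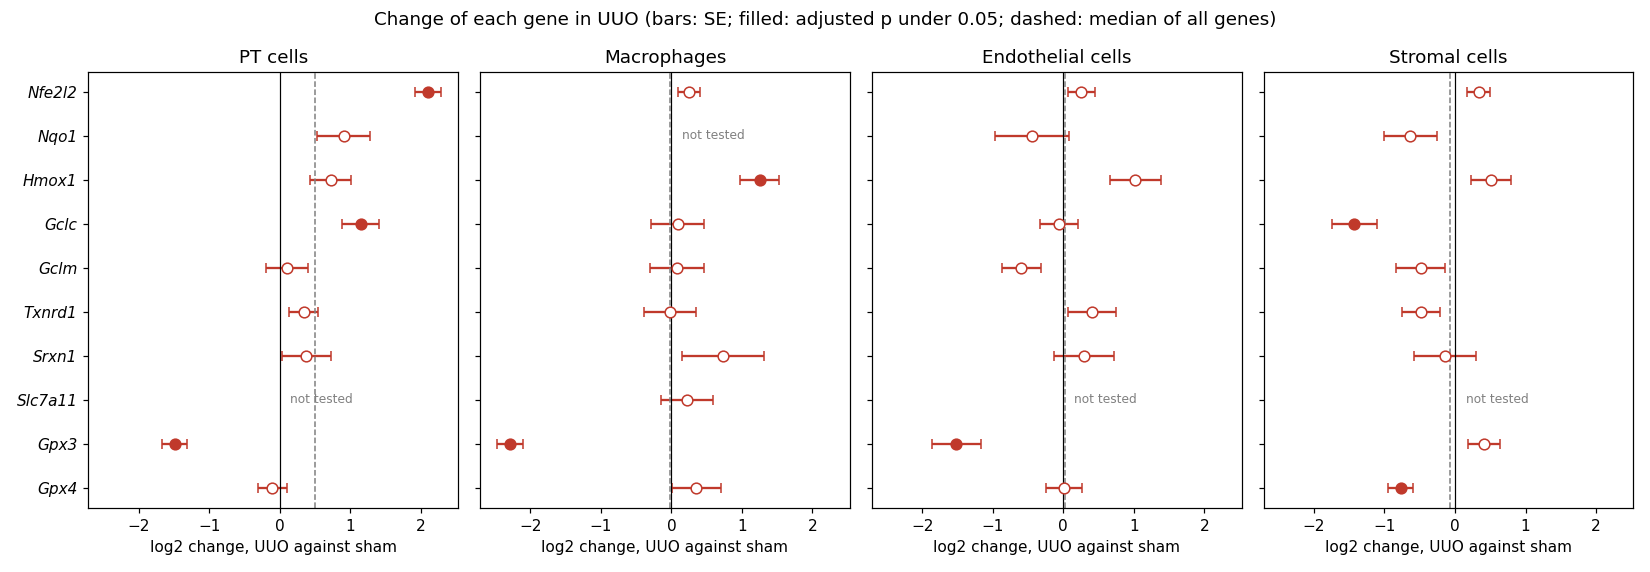
Log2 change between UUO and sham (x axis) of each gene (y axis) in the 4 populations, with the standard error from limma. Filled points passed an adjusted p of 0.05, and the dashed line is the median of all genes tested, 0.51 in PT cells. Nfe2l2, Gclc and Gpx3 pass in PT cells, Hmox1 and Gpx3 in macrophages, Gpx3 in endothelial cells, and Gclc and Gpx4 in stromal cells.

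Nfe2l2 (chr2:75675513-75704641, minus strand, mm10), the gene for NRF2 itself, had its lowest level in PT cells of sham kidneys and its largest change there. It was at 12.5, 13.4 and 11.1 FPKM in PT sham samples, at 54.3, 55.1, 61.6 and 53.5 FPKM in PT UUO samples, and at 30.3, 26.4 and 35.0 FPKM in PT rUUO samples. The 3 groups did not overlap, with rUUO between the others. The log2 change was 2.10 (SE 0.19, limma adjusted p = 1.69e-06) for UUO against sham, beside a median of 0.51 over all genes. From UUO to rUUO it was -0.86 (SE 0.19, limma adjusted p = 0.0262), and rUUO remained above sham by 1.24 (SE 0.20, limma adjusted p = 0.00129). The fall after reversal lost its call when PT UUO replicates 1, 2 or 3 or rUUO replicates 2 or 3 were left out singly (adjusted p = 0.0555 to 0.101), and without the mitochondrial genes (0.0542). Summed thick ascending limb markers moved with Nfe2l2 in PT samples, with 17.7 to 22.1 FPKM in the sham samples, 142 to 179.6 FPKM in those of UUO and 46.5 to 135 FPKM in those of rUUO, and their part in the result was not tested. Collecting duct markers were also higher (10.2 to 16.1, 28.4 to 78.2 and 21.5 to 46.9 FPKM). So were stromal markers (15.85 to 21.21, 21.45 to 48.64 and 22.42 to 31.83 FPKM). In the same order endothelial markers were 8.04 to 14.32, 11.44 to 24.69 and 15.92 to 19.06 FPKM. Macrophage markers were 6.49 to 12.58, 6.81 to 18.19 and 6.89 to 12.16 FPKM. The part of these sums in the Nfe2l2 result was not tested either.

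In macrophages Nfe2l2 was at 90.3, 91.1, 114 and 89.1 FPKM in sham, 107, 121, 128 and 99.1 FPKM in UUO, and 154, 164 and 170.5 FPKM in rUUO. All rUUO samples lay above all sham and UUO samples. The log2 change was 0.76 (SE 0.16, limma adjusted p = 0.0202) for rUUO against sham and 0.25 (adjusted p = 0.405) for UUO against sham. The call between rUUO and sham was lost when any 1 of sham replicates 1, 2 and 4 or of the 3 rUUO samples was left out (adjusted p = 0.0515 to 0.0995), with log2 changes of 0.73 to 0.80.

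In endothelial cells Nfe2l2 was at 80.7, 82.1, 74.5 and 65.8 FPKM in sham, 82.0, 108.5 and 82.6 FPKM in UUO, and 87.1, 82.3, 119 and 93.6 FPKM in rUUO. In stromal cells it was at 54.7, 58.0, 54.1 and 48.3 FPKM in sham, 57.5, 60.4, 79.7 and 76.9 FPKM in UUO, and 47.4, 55.0, 61.4 and 61.6 FPKM in rUUO. None of these endothelial or stromal differences passed (limma adjusted p = 0.16 for stromal UUO against sham, the lowest of them). On the log2 scale the rise in PT cells exceeded the change in macrophages by 1.86 (SE 0.21, limma adjusted p = 1.71e-08). It exceeded that in endothelial cells by 1.85 (SE 0.22, adjusted p = 4.74e-08) and that in stromal cells by 1.77 (SE 0.21, adjusted p = 1.58e-08).

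Glutathione is made in a first, rate-limiting step by glutamate-cysteine ligase, whose catalytic subunit is encoded by Gclc (chr9:77754535-77794485, plus strand) and whose modifier subunit is encoded by Gclm (chr3:122245557-122270732, plus strand). Gclc was at 18.0, 18.1 and 13.5 FPKM in PT sham, at 29.9, 39.5, 39.2 and 43.0 FPKM in PT UUO, and at 19.9, 10.3 and 21.1 FPKM in PT rUUO. UUO samples lay above both other groups, which overlapped. Gclc rose by 1.15 on the log2 scale in UUO (SE 0.26, limma adjusted p = 0.0043), and fell by 1.15 in rUUO against UUO (SE 0.26, limma adjusted p = 0.0276). Its rUUO level was 1.03 times the sham mean (limma adjusted p = 0.993). The return lost its call without PT UUO replicates 2, 3 or 4 or rUUO replicate 3 (adjusted p = 0.064 to 0.107, log2 -1.13 to -0.84), and with no filter on low genes (0.083). Summed thick ascending limb markers were also highest in the PT UUO samples (values with Nfe2l2), and their part in the Gclc result was not tested.

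In stromal cells Gclc went the other way, at 12.6, 14.3, 18.3 and 13.8 FPKM in sham, 3.17, 3.62, 9.98 and 4.31 FPKM in UUO, and 7.75, 5.97, 9.26 and 4.48 FPKM in rUUO. All UUO and rUUO samples lay below all sham samples. Gclc fell by 1.43 on the log2 scale in UUO (SE 0.32, limma adjusted p = 0.00357) and by 1.03 in rUUO (SE 0.32, limma adjusted p = 0.0376) against the same sham samples. The second of these calls was lost when any sample of these 8 except rUUO replicate 4 was left out (adjusted p = 0.0543 to 0.111, log2 -1.10 to -0.87), with no filter on low genes (0.0736) and as TPM (0.0575). Summed markers of the thick ascending limb moved with it, with 240.6 to 314 FPKM in the sham samples, 28.2 to 54.1 FPKM in those of UUO and 49.1 to 84.9 FPKM in those of rUUO, and so did those of the collecting duct (67.8 to 170.1, 3.37 to 16 and 3.87 to 10.1 FPKM). Sums of T cell markers (0.06 to 1.69, 3.31 to 29.4 and 1.23 to 8.21 FPKM) and neutrophil markers (0.14 to 0.93, 8.37 to 56.0 and 3.48 to 41.1 FPKM) moved the other way. The part of these cells in the fall was not tested. The difference between the PT and stromal changes was 2.58 (SE 0.43, limma adjusted p = 1.23e-05). Thick ascending limb markers also moved in opposite directions in these populations, and their part in this difference was not tested. Gclc was between 1.75 and 8.12 FPKM in all macrophage samples and between 9.75 and 20.2 FPKM in all endothelial samples, with no difference past the threshold within either population.

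Gclm had no call between surgeries, unlike Gclc. In PT cells it was at 35.2, 34.5 and 30.9 FPKM in sham, 26.1, 24.1, 54.1 and 48.7 FPKM in UUO, and 26.6, 18.0 and 33.1 FPKM in rUUO. The 4 UUO samples split to either side of the sham samples, and the log2 change was 0.10 (SE 0.30, limma adjusted p = 0.815). It was -0.19 without the mitochondrial genes. Gclm was at 2.59 to 9.89 FPKM in macrophages, 7.04 to 18.5 FPKM in endothelial cells and 3.36 to 11.9 FPKM in stromal cells, and no difference within a population passed. In endothelial UUO samples it was at 8.61, 8.61 and 7.04 FPKM, under all 4 sham samples (10.3 to 18.5 FPKM), with a log2 change of -0.59 (SE 0.28, limma adjusted p = 0.369).

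Slc7a11 (chr3:49892526-50443614, minus strand), the cystine importer that supplies cysteine for glutathione, was the least expressed member in all populations but macrophages, where Nqo1 was lower. It ranged from 0.03 to 0.48 FPKM in PT cells, from 0.07 to 0.64 FPKM in endothelial cells and from 0.21 to 1.66 FPKM in stromal cells. In macrophages it was at 0.5, 1.07, 0.33 and 0.21 FPKM in sham, 1.51, 0.61, 0.58 and 0.44 FPKM in UUO, and 3.14, 1.52 and 3.07 FPKM in rUUO. Every macrophage rUUO sample lay above every other macrophage sample, the lowest by little (1.52 against 1.51 FPKM in UUO). The log2 change of 1.22 against sham (SE 0.39) did not pass (limma adjusted p = 0.117). With means of 0.528, 0.785 and 2.58 FPKM in sham, UUO and rUUO, Slc7a11 met the filter of 1 FPKM only through the rUUO group. Its test there was therefore not independent of the filter.

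Hmox1 (chr8:75093621-75100589, plus strand) encodes haem oxygenase 1, which breaks haem down to biliverdin, iron and carbon monoxide and is abundant in macrophages that take up red cells. In macrophages it was at 24.3, 35.7, 35.7 and 33.7 FPKM in sham, 92.1, 45.4, 81.7 and 106.6 FPKM in UUO, and 91.1, 49.2 and 92.3 FPKM in rUUO. All UUO and rUUO samples lay above all sham samples, and 1 sample of each was low among its group. Hmox1 rose by 1.25 on the log2 scale in UUO (SE 0.28, limma adjusted p = 0.0196) and by 1.20 in rUUO against the same sham samples (SE 0.30, limma adjusted p = 0.043). Macrophage rUUO differed from UUO by -0.06 (limma adjusted p = 0.984). The low UUO sample, replicate 2, was the library with few macrophage markers, and without it the UUO change was 1.51 (adjusted p = 0.00196). Without sham replicate 1 or UUO replicate 1 the UUO call was lost (adjusted p = 0.0646 and 0.0578, log2 1.13 and 1.17). The rUUO call was lost without any 1 of the 4 sham samples or without rUUO replicates 1 or 6 (adjusted p = 0.0709 to 0.18, log2 1.04 to 1.25). With no filter on low genes the adjusted p was 0.0714 and 0.125. In the sham, UUO and rUUO macrophages summed neutrophil markers were 26.1 to 78.7, 49.9 to 232 and 99.1 to 127 FPKM, T cell markers 0 to 0.72, 4.04 to 39.7 and 5.34 to 35.6 FPKM, and red blood cell markers 15.8 to 174.9, 18.1 to 70.7 and 3.89 to 37.1 FPKM. Their part in the Hmox1 result was not tested.

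Outside macrophages no Hmox1 difference passed. In PT cells it was at 8.34, 9.96 and 5.4 FPKM in sham, 17.2, 10.6, 18.6 and 9.2 FPKM in UUO, and 7.75, 9.52 and 7.49 FPKM in rUUO, with 1 UUO sample inside the sham range (log2 change 0.72, SE 0.29, limma adjusted p = 0.0697). In endothelial cells it was at 9.48, 4.0, 6.2 and 7.73 FPKM in sham, 17.3, 20.5 and 8.22 FPKM in UUO, and 8.21, 3.98, 6.9 and 7.26 FPKM in rUUO. The lowest of these UUO values lay inside the sham range and the others above it (log2 change 1.02, SE 0.36, limma adjusted p = 0.205). In stromal cells it was at 12, 14.2, 15.1 and 6.68 FPKM in sham, 19.7, 14.5, 11.2 and 24.7 FPKM in UUO, and 9.54, 7.47, 9.79 and 7.87 FPKM in rUUO (UUO against sham, log2 change 0.51, limma adjusted p = 0.213). The difference between the PT and the macrophage change was -0.53 (SE 0.44, limma adjusted p = 0.456), so Hmox1 was not shown to change differently in these 2 populations.

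Nqo1 (chr8:107388225-107403206, minus strand), a quinone reductase often read as an NRF2 target, was at 3.65, 0.81 and 3.79 FPKM in PT sham, 3.78, 4.19, 8.58 and 6.16 FPKM in PT UUO, and 3.62, 4.45 and 5.44 FPKM in PT rUUO. One sham sample (replicate 2) was low, and the log2 change of 0.91 (SE 0.37, limma adjusted p = 0.0755) became 0.45 without it. Nqo1 was listed at 0 to 0.38 FPKM in the 11 macrophage samples. It was at 0.78, 3.93, 5.16 and 2.83 FPKM in endothelial sham, 0.96, 1.67 and 3.17 FPKM in UUO, and 0.41, 3.27, 2.33 and 4.61 FPKM in rUUO. In stromal cells it was at 3.17, 3.92, 2.83 and 2.08 FPKM in stromal sham, 3.12, 2.15, 0.31 and 1.46 FPKM in UUO, and 1.22, 3.06, 2.25 and 1.76 FPKM in rUUO. The groups overlapped in both. The PT change exceeded the stromal change by 1.54 (SE 0.55, limma adjusted p = 0.031). This difference lost its call without any 1 of PT sham replicate 2, PT UUO replicates 3 and 4, stromal sham replicate 2 and stromal UUO replicate 3 (adjusted p = 0.0519 to 0.16, log2 1.08 to 1.49) with a pseudocount of 0.1 (0.0676) and with no filter on low genes (0.0609), and was 0.59 under quantile normalization (adjusted p = 0.454).

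Thioredoxin reductase 1 (Txnrd1, chr10:82833951-82897712, plus strand) returns oxidised thioredoxin to its reduced form, and sulfiredoxin (Srxn1, chr2:152105516-152111376, plus strand) repairs over-oxidised peroxiredoxins. Neither passed in any comparison between surgeries. Txnrd1 was at 25.4, 24.6 and 20.5 FPKM in PT sham, 26.4, 29.5, 28.9 and 36.0 FPKM in UUO, and 23.1, 26.1 and 32.8 FPKM in rUUO. All 4 PT UUO samples lay above the sham samples, but the log2 change of 0.34 (SE 0.21, limma adjusted p = 0.214) was under the median of all genes, 0.51. Txnrd1 ranged from 3.7 to 24.8 FPKM in macrophages, from 8.24 to 25.0 FPKM in endothelial cells and from 12.3 to 41.1 FPKM in stromal cells, where the highest value was that of 1 sham sample (replicate 3). Srxn1 was at 7.05, 17.1 and 4.64 FPKM in PT sham, 8.72, 9.53, 15.6 and 11.9 FPKM in UUO, and 13.2, 10.6 and 9.12 FPKM in rUUO, with a log2 change of 0.38 (SE 0.35, limma adjusted p = 0.421). It ranged from 0.46 to 9.53 FPKM in macrophages, from 4.36 to 17.9 FPKM in endothelial cells and from 2.98 to 18.0 FPKM in stromal cells, and the surgery groups overlapped in each of the 4 populations.

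Gpx3 (chr11:54902453-54910377, plus strand) encodes the glutathione peroxidase of plasma, which proximal tubule cells secrete. It was the most abundant member, at 12909, 12939 and 9147 FPKM in PT sham, 4905, 4094, 3358 and 4212 FPKM in PT UUO, and 7568, 7990 and 5968 FPKM in PT rUUO. The 3 groups did not overlap, with rUUO between the others, the reverse of the order of Nfe2l2. Gpx3 fell by 1.49 on the log2 scale in UUO (SE 0.18, limma adjusted p = 2.64e-05), increased by 0.79 from UUO to rUUO (SE 0.18, limma adjusted p = 0.0267), and in rUUO was still below sham (log2 -0.69, SE 0.19, limma adjusted p = 0.0385). The rise after reversal lost its call without PT UUO replicates 2 or 3 or rUUO replicates 2 or 3 (adjusted p = 0.0602 to 0.113, log2 0.70 to 0.79) and was 0.22 under quantile normalization (adjusted p = 0.482). It was also lost with no filter on low genes (adjusted p = 0.255) and in the joint fit of all populations (0.114). The difference from sham lost its call without sham replicates 1 or 2 or any 1 rUUO sample (adjusted p = 0.0552 to 0.147, log2 -0.78 to -0.57), with no filter on low genes (0.381) and in the joint fit of all populations (0.212).

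In macrophages Gpx3 was at 867, 649.7, 473 and 645 FPKM in sham, 153, 113, 125 and 135 FPKM in UUO, and 125, 128 and 105 FPKM in rUUO. All 7 obstructed or reversed samples lay below all sham samples, and rUUO differed from UUO by -0.14 (limma adjusted p = 0.931). Against the same sham samples the UUO log2 change was -2.29 (SE 0.19, limma adjusted p = 2.66e-05) and that of rUUO -2.43 (SE 0.20, limma adjusted p = 2.57e-05). In endothelial cells it was at 427, 304, 682 and 457 FPKM in sham, 141, 127 and 211 FPKM in UUO, and 214, 114, 313 and 377 FPKM in rUUO. UUO samples lay below all sham samples (log2 -1.52, SE 0.35, limma adjusted p = 0.0346), and rUUO samples overlapped sham (log2 -0.95, limma adjusted p = 0.175). The endothelial UUO call was lost without sham replicates 1, 3 or 4 or UUO replicates 1 or 2 (adjusted p = 0.0727 to 0.115, log2 -1.54 to -1.32) and with no filter on low genes (adjusted p = 0.208).

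Markers of the proximal tubule moved with Gpx3 in both populations. The sum of Lrp2, Cubn, Slc34a1, Slc5a12 and Slc22a6 ranged over 72.9 to 97.6, 11.9 to 23.9 and 12.7 to 14.8 FPKM in sham, UUO and rUUO macrophages, and over 33.4 to 106.6, 13.1 to 34.0 and 12 to 47.8 FPKM in endothelial cells. In PT cells themselves it ranged over 1620 to 2161, 437 to 627 and 1014 to 1212 FPKM. Gpx3 per unit of this sum in sham, UUO and rUUO samples of PT cells was 5.65 to 6.02, 5.66 to 11.2 and 5.88 to 7.38. The same ratio was 6.49 to 8.88, 5.22 to 12.9 and 8.26 to 8.87 in macrophages, and 6.40 to 9.94, 6.20 to 9.73 and 7.46 to 12.4 in endothelial cells. In macrophages the UUO range of the ratio spanned the sham range, so Gpx3 and these markers fell there by similar factors, and the part of the markers in the Gpx3 result was not tested further.

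In stromal cells Gpx3 did not pass between any surgeries, and it was at 638, 509, 599.9 and 554 FPKM in sham, 779, 776, 457 and 1231 FPKM in UUO, and 494, 577, 627 and 661 FPKM in rUUO, with overlapping groups (UUO against sham, log2 change 0.41, SE 0.23, limma adjusted p = 0.197). The change was -0.22 under quantile normalization. The proximal tubule marker sum ranged over 25.1 to 42.4, 4.9 to 13.4 and 6.49 to 14.4 FPKM in sham, UUO and rUUO stromal cells. Per unit of that sum Gpx3 lay at 15 to 23.9, 49.2 to 251 and 34.4 to 102, so that all 12 stromal samples lay above every sample of the other 3 populations, the highest of which was 12.9. The PT change in Gpx3 was lower than the stromal change (log2 difference -1.90, SE 0.39, limma adjusted p = 0.000199), a difference that under quantile normalization was -0.76 (adjusted p = 0.159).

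**Figure D3:**
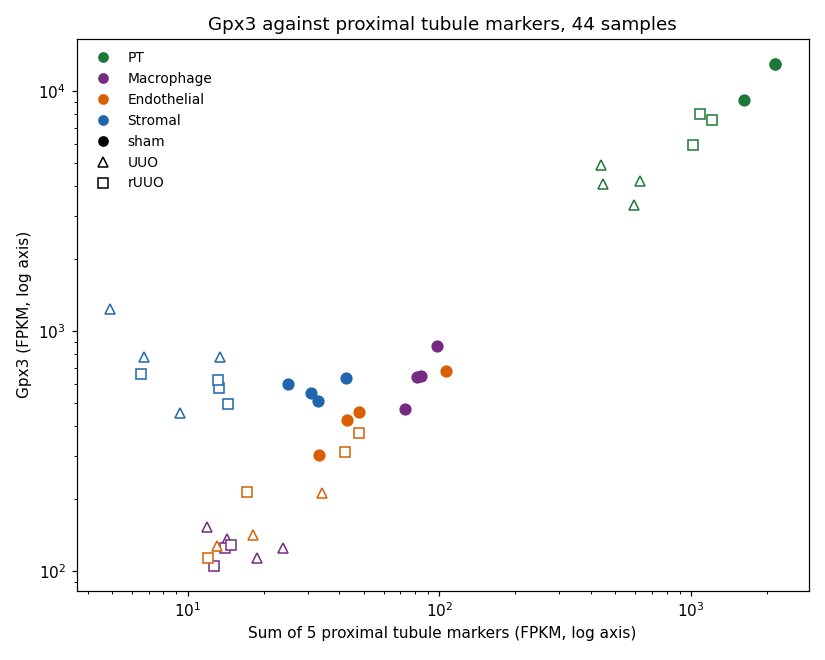
Gpx3 (y axis, FPKM, log scale) against the summed FPKM of 5 proximal tubule markers (x axis, log scale) in the 44 samples, coloured by population and shaped by surgery. PT, macrophage and endothelial samples lie along 1 band with 5.22 to 12.9 FPKM of Gpx3 per FPKM of markers, and the 12 stromal samples lie above it at 15 to 251.

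Gpx4 (chr10:80047166-80056439, plus strand) encodes the selenoenzyme that reduces lipid peroxides in membranes and so guards cells against ferroptosis. In stromal cells it was at 118.5, 91.5, 98.4 and 90.6 FPKM in sham, 50.4, 52.9, 62.1 and 67.1 FPKM in UUO, and 88.1, 92.0, 66.0 and 62.3 FPKM in rUUO. UUO samples lay below all sham samples, whereas rUUO samples overlapped both. Gpx4 fell by 0.77 on the log2 scale in UUO (SE 0.18, limma adjusted p = 0.00446), a call kept in each of the alternatives (adjusted p up to 0.026). Its level in rUUO differed from neither sham (log2 -0.38, limma adjusted p = 0.173) nor UUO (log2 0.39, limma adjusted p = 0.239) past the threshold. The stromal marker sums of the thick ascending limb, collecting duct, T cells and neutrophils given with Gclc, and that of the proximal tubule given with Gpx3, moved in the same UUO samples, and their part was not tested. In PT cells Gpx4 was at 147, 175 and 119 FPKM in sham, 119.5, 148, 164 and 117 FPKM in UUO, and 174, 130.2 and 119 FPKM in rUUO, with a log2 change of -0.10 in UUO (SE 0.20, limma adjusted p = 0.721); under quantile normalization it was -0.46 (adjusted p = 0.0441). It ranged from 19.8 to 84.7 FPKM in macrophages and from 68.4 to 187 FPKM in endothelial cells, with no difference past the threshold.

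After reversal, rUUO against UUO called 3 of 9 members in PT cells (background 3.83%), with Gpx3 higher and Nfe2l2 and Gclc lower, the 3 that had moved in UUO. Both comparisons share the UUO samples. None of 9 passed in macrophages, where limma called no gene at all (background 0.0%). There 945 of 13332 genes and 2 of the 9 members had an unadjusted p under 0.05. The 9 include Slc7a11, which met the filter only through its rUUO group, so the members' count was not independent of the filter. None of 9 passed by limma in endothelial cells (background 0.0597%) or in stromal cells (background 4.17%). At an unadjusted p under 0.05 there were 1 and 2 members. The share of all genes at that threshold is not given, and these backgrounds are for the adjusted p. Against sham, rUUO called 2 of 9 in PT cells (background 7.46%; Nfe2l2 higher, Gpx3 lower), and 3 of 9 in macrophages (background 3.44%; Nfe2l2 and Hmox1 higher, Gpx3 lower). It called none in endothelial cells (background 1.77%) and 1 of 9 in stromal cells (background 17.2%, Gclc lower). In endothelial cells 1 member had an unadjusted p under 0.05, a threshold to which the background does not apply. These comparisons share the sham samples with those of UUO.

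In sham kidneys the levels of the members were compared between populations. Nfe2l2 was highest in macrophages (96.0 ± 11.7 FPKM, SD, n = 4), followed by endothelial cells (75.8 ± 7.42, n = 4), stromal cells (53.8 ± 4.04, n = 4) and PT cells (12.3 ± 1.16, n = 3). The step from macrophages to endothelial cells did not pass (limma adjusted p = 0.0722), and the step from stromal to PT cells was the widest (log2 -2.04, limma adjusted p = 8.15e-09). Over all genes the median difference of PT from stromal cells was -1.06, and Nfe2l2 lay at percentile 18.87 of these differences. The step from endothelial to stromal cells passed (log2 0.48, limma adjusted p = 0.0217). It was lost at an adjusted p of 0.0555 to 0.0635 when endothelial sham replicates 1 or 2 or stromal sham replicate 4 was left out, and without mitochondrial genes or as TPM, at 0.0551 and 0.123. Gpx3 was highest in PT cells, at 11670 ± 2181 FPKM (SD, n = 3) in PT cells, against 659 ± 161 in macrophages, 575 ± 56.0 in stromal cells and 468 ± 158 in endothelial cells (each SD, n = 4). No pair among these 3 passed. Hmox1 was highest in macrophages at 32.4 ± 5.47 FPKM (SD, n = 4), above stromal cells (12 ± 3.76, limma adjusted p = 0.000463). Stromal, PT (7.9 ± 2.31) and endothelial cells (6.85 ± 2.33) were not told apart.

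Most of the other members had their lowest sham level in macrophages. Gclm was at 33.5 ± 2.33 FPKM in PT cells (SD, n = 3), 13 ± 3.72 in endothelial, 9.17 ± 2.59 in stromal cells and 5.69 ± 3.10 in macrophages (SD, n = 4). PT cells were above each other population (limma adjusted p = 0.00145 against endothelial cells), endothelial and stromal cells were not told apart, and neither were stromal cells and macrophages (limma adjusted p = 0.0654). Gclc was at 16.5 ± 2.61 FPKM in PT cells, 14.7 ± 2.47 in stromal and 12.6 ± 2.28 in endothelial cells, which did not differ past the threshold, and at 3.94 ± 0.898 in macrophages (PT against macrophages, limma adjusted p = 2.02e-06). Gpx4 had the same shape, with 147 ± 28.0 FPKM in PT, 120.2 ± 44.7 in endothelial and 99.7 ± 13 in stromal cells and 34.8 ± 10.3 in macrophages (PT against macrophages, limma adjusted p = 2.22e-06). Srxn1 was at 13.3 ± 4.85 FPKM in stromal cells, 9.58 ± 6.59 in PT cells, 8.93 ± 5.13 in endothelial cells and 2.5 ± 2.37 in macrophages, which were below each other population (against PT cells the adjusted p was 0.0074, and 0.0615 without PT sham replicate 2). Txnrd1 was at 23.6 ± 11.7 FPKM in stromal and 23.5 ± 2.64 in PT cells, 13.6 ± 7.21 in endothelial cells and 10.1 ± 1.75 in macrophages. Txnrd1 in PT cells was above endothelial cells by 0.85 on the log2 scale (limma adjusted p = 0.0338), a call lost without any 1 of PT sham replicates 1 and 2 and endothelial sham replicates 1, 2 and 4 (adjusted p = 0.0694 to 0.0987), with no filter on low genes (0.0778) and as TPM (0.168). Nqo1 was at 3.18 ± 1.86 FPKM in endothelial, 3.0 ± 0.764 in stromal and 2.75 ± 1.68 in PT cells.

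Of 9 members tested, sham PT cells were higher than macrophages for 7 and lower for 2 (background of all genes in either direction 64.9%), higher than endothelial cells for 3 and lower for 1 (background 62.3%), and higher than stromal cells for 2 and lower for 1 (background 67.6%). Sham macrophages were higher than endothelial cells for 1 and lower for 5 (background 45.7%), and higher than stromal cells for 2 and lower for 5 (background 48.1%). Endothelial cells were higher than stromal cells for 1, Nfe2l2 (background 24.2%). The median log2 difference of all genes was -0.90, -0.93 and -1.06 for PT cells against macrophages, endothelial and stromal cells. The members' medians were 1.70, 0.34 and 0.09. With the mitochondrial genes left out, 7 members passed between PT and endothelial cells and 5 between PT and stromal cells, and under quantile normalization 8 and 7. These counts are in either direction. The share of all genes called at these settings is not given, so they are not read as a trait of the members. For the difference between PT and other changes in UUO, 1 of 9 members passed against macrophages (background 15.5%), 1 of 9 against endothelial cells (background 11.1%) and 4 of 9 against stromal cells (background 29.2%).

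Another 42 genes of the pathway, sorted by role, were read in the same fits, and all were found in the table and tested. In PT UUO 8 rose and 9 fell (40.5% of the list, beside 32.8% of all genes tested), in macrophage UUO 1 fell (2.38%, beside 4.99%), in endothelial UUO 2 fell (4.76%, beside 1.98%), and in stromal UUO 8 rose and 6 fell (33.3%, beside 26.4%). In PT and stromal cells these shares lay near those of all genes, and the others rest on 1 and 2 genes. In PT cells the largest changes were those of Txnip, which encodes an inhibitor of thioredoxin (log2 3.37, SE 0.27, limma adjusted p = 5.18e-07), Abcc1, an exporter of glutathione conjugates (2.39, SE 0.36), Maff, a small MAF protein (2.34, SE 0.28), and G6pdx, the entry enzyme of the pentose phosphate pathway (1.85, SE 0.25). By role, 4 of 6 detoxification and stress genes rose in PT UUO (Ephx1, Abcc1, Gstm1 and Gsta4) and none fell, with a median of 1.31 beside 0.51 for all genes, of which 27.9% rose and 4.91% fell. In the same comparison 3 of 5 peroxide and superoxide enzymes fell (Cat, Sod2 and Sod3) with a median of -0.76. Under quantile normalization 3 of the detoxification genes still rose (median 0.91) and 3 of the peroxide and superoxide enzymes fell (median -1.06). Of 6 genes of glutathione synthesis, uptake and recycling 3 fell (Ggt1, Slc3a2 and Glrx), but 1 in the joint fit of all populations. Keap1, which encodes the inhibitor of NRF2, did not pass (log2 -0.06, limma adjusted p = 0.906). In rUUO against UUO only G6pdx passed in PT cells (log2 -1.13, SE 0.25, limma adjusted p = 0.0254).

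In the other populations detoxification genes that passed were lower. In stromal UUO the glutathione transferases Gstm1 (log2 -2.54, SE 0.29, limma adjusted p = 9.8e-06) and Gsta4 (-2.46, SE 0.25, adjusted p = 3.56e-06) fell, and so did Ephx1 (-1.83, SE 0.27, adjusted p = 0.000111). Maff rose by 2.22 there (SE 0.40, limma adjusted p = 0.000714), and Ggt1, which cleaves extracellular glutathione and is abundant in the proximal tubule, fell by 2.17 (SE 0.53, adjusted p = 0.00634). The proximal tubule marker sum fell in the same stromal UUO samples (values with Gpx3), and its part in the Ggt1 fall was not tested. Gstm1 (-1.18, limma adjusted p = 0.00129) and Gsta4 (-1.77, adjusted p = 0.0377) also fell in endothelial UUO, and Ephx1 fell in macrophage UUO (-1.40, adjusted p = 0.0257). The PT changes of Ephx1, Gstm1 and Gsta4 were higher than the macrophage, endothelial and stromal changes in each of the 3 tests of the difference, in which 7, 8 and 7 of the 42 genes passed upwards and 5, 2 and 7 downwards. In all, 28.6%, 23.8% and 33.3% of the list passed, beside 15.5%, 11.1% and 29.2% of all genes. The thick ascending limb sum moved in the same directions, up in PT UUO and down in the UUO samples of stromal cells (values with Gclc), endothelial cells (130.5 to 640.4 FPKM in sham, 47.8 to 168 FPKM after UUO) and macrophages (36.9 to 63.2 and 11.8 to 37.2 FPKM), and its part in these changes was not tested. In sham kidneys Ephx1, Abcc1, Gstm1 and Gsta4 were called lower in PT cells than in endothelial and in stromal cells. So were 53.6% and 59.7% of all genes tested. Against macrophages Gstm1 and Gsta4 were called higher in PT cells, and Ephx1 and Abcc1 lower. Stromal marker sums in PT samples were higher after UUO (values with Nfe2l2), and their part was not tested. In rUUO against UUO, stromal Gstm1 (1.37, limma adjusted p = 0.0166) and Txnip (1.21, adjusted p = 0.00262) rose and Sod3 fell by 1.12, and no pathway gene passed in macrophages or endothelial cells. Between rUUO and sham, 5 pathway genes were higher and 2 lower in PT cells (16.7%, beside 7.46% of all genes), 3 and 1 in macrophages (9.52%, beside 3.44%), 1 and 1 in endothelial cells (4.76%, beside 1.77%), and 7 and 4 in stromal cells (26.2%, beside 17.2%). Those of macrophages were Maff (2.46, limma adjusted p = 0.0147), the ferritin heavy chain Fth1 (1.01, adjusted p = 0.00829), the amino acid transporter subunit Slc3a2, partner of Slc7a11 (0.81, adjusted p = 0.0187), and Ggt1 (-1.87, adjusted p = 0.0187). The proximal tubule marker sum was also lower in rUUO than in sham macrophages (values with Gpx3), and its part in the Ggt1 result was not tested.

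**Figure D4:**
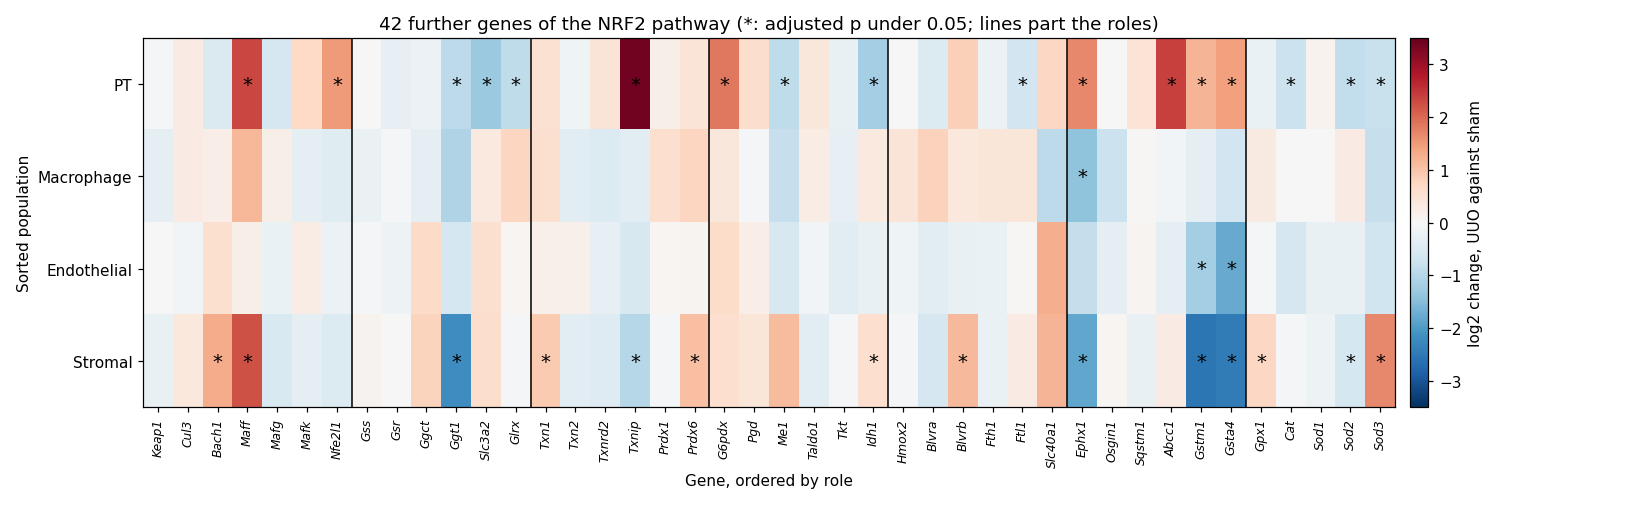
Log2 change between UUO and sham (colour) of the 42 pathway genes (x axis, ordered by role) in the 4 populations (y axis), with a star where the limma adjusted p was under 0.05. Ephx1, Gstm1 and Gsta4 are red in PT cells and blue elsewhere, and Txnip has the strongest red at 3.37 in PT cells.

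As a description of how the levels ran together over the 44 samples, which share populations and depth, each member was set against all genes averaging 1 FPKM or more by Pearson's r of log2(FPKM + 1). Nfe2l2 was most like Btg1 (r = 0.946), Hmox1 most like Gpr35 (r = 0.912) and Gpx3 most like Slc4a4 (r = 0.959). Gpx4 was nearest to Chchd2 (r = 0.896), Gclm to Mgam (r = 0.88), Gclc to Gmpr (r = 0.866) and Nqo1 to Enpp5 (r = 0.832). The nearest genes of Txnrd1 (Gm42428, r = 0.747), Slc7a11 (Adam22, r = 0.706) and Srxn1 (Dync2li1, r = 0.68) were less alike. Among the members themselves the closest pair was Gpx3 with Gclm (r = 0.737), followed by Gclc with Gpx4 (r = 0.724), and the member most like Nfe2l2 was Hmox1 (r = 0.56).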

How the data were processed

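RNA from cells sorted by FACS was amplified with the Ovation RNA-Seq System V2. The authors deposited FPKM values per gene for all samples in 1 table, on mm10; their processing notes name FastQC, RSEM, Bowtie2 and DESeq2 without versions, and which of them made the FPKM is not given in the sources used here. Of 46 value columns 44 were used: 2 columns carry the same name, that of 1 endothelial UUO sample, and were left out, and no column was named for 1 PT sham sample. A sample titled with both sham and UUO was grouped by its treatment label. The members and lists were chosen with earlier results of these data known. Groups were fitted by limma 3.58.1 (lmFit, and eBayes with an intensity trend) in R 4.3.3 on log2(FPKM + 1), keeping genes that averaged 1 FPKM or more in the samples fitted, with two-sided p-values, Benjamini-Hochberg adjustment over all genes tested and a threshold of 0.05. Surgeries were compared within a population, populations in sham samples, and changes between populations in 1 fit of all 44 samples. The fit was tested on simulated PT data with changes of random sign. These data lacked the shift over all genes seen in PT UUO, so the test does not vouch for the calls there. All members were named, and of the 42 pathway genes up to 4 with the largest change past the threshold in comparisons of UUO with sham or rUUO, with others given as counts by role. Genes singled out beyond this (Ephx1, Gstm1 and Gsta4 in PT cells, Ephx1 in stromal cells, Cat, Sod2, Sod3, Ggt1, Slc3a2, Glrx and Keap1 in PT cells, and those of rUUO against sham and between sham populations) were chosen after their values were seen. Python 3.11.15, pandas 2.3.3, numpy 2.4.6 and matplotlib 3.10.9 were used. Also tried were a pseudocount of 0.1, omitting the filter, rescaling to equal sums (TPM), rescaling without the 37 mitochondrial genes, quantile normalization, a joint fit of the populations, a replicate block, and leaving out each replicate. With no counts, no interval or floor from counting was given.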

Additional observations from a re-analysis of the deposited data

Results flagged for a closer look

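Among 80 groups of 4 samples, 7 had 1 sample far from the other 3, where chance gives about 1 in 20. Taken after log2(FPKM + 1), the distance to the next sample, as a share of the group's range, was 0.909 for Nfe2l2 in macrophage sham replicate 3 (114 FPKM, the others 89.1 to 91.1), 0.851 for Hmox1 in macrophage sham replicate 1 (24.3 FPKM, the others 33.7 to 35.7), 0.839 for Txnrd1 in stromal sham replicate 3 (41.1 FPKM, the others 16.8 to 19.5) and 0.901 for Txnrd1 in stromal UUO replicate 4 (12.3 FPKM, the others 16.3 to 16.8). It was 0.915 for Srxn1 in endothelial sham replicate 3 (16.6 FPKM, the others 6.01 to 6.58), 0.835 for Srxn1 in stromal UUO replicate 4 (5.65 FPKM, the others 13.2 to 15.5) and 0.8293 for Gpx4 in endothelial sham replicate 4 (186.8 FPKM, the others 90.2 to 102). Endothelial sham replicate 3 is the sample with the high thick ascending limb sum.

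The change in UUO differed between PT cells and another population, by a test of the difference in limma with Benjamini-Hochberg adjustment, for 4 members. The log2 difference was 1.86 (SE 0.21, adjusted p = 1.71e-08), 1.85 (SE 0.22, adjusted p = 4.74e-08) and 1.77 (SE 0.21, adjusted p = 1.58e-08) for Nfe2l2 against macrophages, endothelial and stromal cells. Against stromal cells it was 1.54 for Nqo1 (SE 0.55, adjusted p = 0.031), 2.58 for Gclc (SE 0.43, adjusted p = 1.23e-05) and -1.90 for Gpx3 (SE 0.39, adjusted p = 0.000199).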

How the results depend on the processing

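Counts of members called moved as follows. The share of all genes called at each setting is not given, so these counts describe only the stability of the calls. With no filter, 1 passed in PT rUUO against UUO (3 as reported), 1 in PT rUUO against sham (2) and macrophage UUO against sham (2), and 0 in endothelial UUO against sham (1) and stromal rUUO against sham (1). With the replicate block, 1 passed in PT rUUO against UUO, PT rUUO against sham, macrophage UUO against sham and macrophage rUUO against sham (3), and 0 in stromal rUUO against sham; it changed no other count of members by over 1.5 times. The calls lost with the block were PT rUUO against UUO for Nfe2l2 (limma adjusted p = 0.0807) and Gclc (0.0599), PT rUUO against sham for Gpx3 (0.081), macrophage UUO against sham for Hmox1 (0.058), macrophage rUUO against sham for Nfe2l2 (0.127) and Hmox1 (0.367), and stromal rUUO against sham for Gclc (0.214, log2 -0.66). Same-numbered samples deviated together little (median r = 0.013 over 35 pairs between surgeries and 0.009 over 57 pairs between populations). The highest r was 0.101 and 0.167, against 0.081 and 0.084 for samples of different numbers. Such correlations cannot tell whether same-numbered samples of different populations came from 1 mouse, and the reported fits treat them as unpaired. In 1 fit of all populations, 1 passed in PT rUUO against sham and 1 in endothelial rUUO against sham (0). In stromal rUUO against sham 0 passed as TPM and 2 without mitochondrial genes or under quantile normalization. In sham PT against endothelial cells 7 passed without mitochondrial genes and 8 under quantile normalization (4), against stromal cells 5 and 7 (3), and 2 under quantile normalization in sham endothelial against stromal cells (1) and in the difference between PT and stromal changes (4). Leaving out each replicate gave 0 to 3 in PT rUUO against UUO, 1 to 2 in PT rUUO against sham, macrophage UUO and rUUO against sham and the differences of PT from macrophage and endothelial changes, 0 to 1 in endothelial UUO against sham, stromal rUUO against UUO and stromal rUUO against sham, and 0 to 2 in sham endothelial against stromal cells.

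Signs turned for changes that had not passed. In PT UUO, Gclm was -0.19 without mitochondrial genes and -0.17 under quantile normalization, and Srxn1 -0.12 under the latter. Gpx3 in stromal UUO was -0.22 under it. Gpx4 in endothelial UUO was -0.007 as TPM, -0.11 without mitochondrial genes, -0.037 under quantile normalization and -0.048 with the block, and Gclc there 0.037 with the block. Without 1 replicate in turn the UUO changes ranged from -0.16 to 0.037 (Gclc) and -0.19 to 0.24 (Gpx4) and -0.079 to 0.83 (Srxn1) in endothelial cells, from -0.18 to 0.40 (Gclc), -0.14 to 0.37 (Gclm) and -0.27 to 0.38 (Txnrd1) in macrophages, from -0.092 to 0.29 (Gclm) and -0.24 to 0.031 (Gpx4) in PT cells, and from -0.32 to 0.15 (Srxn1) in stromal cells.

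Over all genes, PT UUO against sham called 3186 higher and 561 lower, 1940 and 863 without mitochondrial genes, and 1218 and 1217 under quantile normalization. The tables give no counts, so depth limits the low members Slc7a11 and Nqo1 by an unknown amount.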
